A study of Mus musculus with 2 samples.

Results

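Hyaluronan synthesis and binding was followed through 7 genes, of 32285 in the count tables, in single cells of the mouse Achilles tendon enthesis, the site where the tendon inserts into bone. They are listed by symbol, as the synthase genes Has1 and Has2, the hyaluronan-binding genes Tnfaip6 and Ptx3, the receptor gene Cd44, and Cemip and Hyal2, which act in hyaluronan breakdown. All 7 were found by symbol in both libraries. The animals of both libraries were SKG mice, a strain with a mutation in the T cell signalling gene Zap70 that is prone to autoimmune arthritis. One library came from mice under tail suspension, in which the hindlimbs are lifted off the ground and carry no load, and 1 from mice without it (non-tail suspension). Age, sex, duration of suspension, induction of disease and the number of animals pooled are not given in the sources used here. With 1 library per condition there was no replicate and no test of a difference; every interval below is an exact 95% interval that covers counting error only.

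Hyaluronan is a long unbranched sugar polymer that fills the matrix around cells and lubricates gliding surfaces of tendons and joints. It is made at the plasma membrane by the synthases and pushed out of the cell as it grows. In inflamed tissue, TSG-6 (the product of Tnfaip6) transfers heavy chains of inter-alpha-inhibitor onto it and pentraxin 3 (the product of Ptx3) binds these chains, which cross-links the polymer. CD44 is its main receptor on the cell surface, and CEMIP and hyaluronidases cut it into fragments.

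A cell entered if it had 300 genes or more and no more than 20% of its UMIs (unique molecular identifiers, 1 per captured transcript molecule) from mitochondrial genes, which left 10819 cells without suspension and 13991 with it. Median depth of kept cells was 4653 and 8363 UMIs, and median mitochondrial share 1.46% and 3.1%. The libraries shared 47 barcode sequences, 37 of them among kept cells. Cells of both libraries were clustered together without the 7 genes, and clusters were named "X-like" from marker genes. Fibroblast-lineage cells, meaning clusters named fibroblast-, inflammatory fibroblast-, tenocyte- or sheath or lining fibroblast-like, numbered 2029 without suspension (18.8% of kept cells) and 6323 with it (45.2%). A level in CPM is a gene's UMI count scaled to 1000000 UMIs of the same cells.

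The fibroblast-lineage clusters came almost wholly from 1 library each, which bears on every ratio below. Tenocyte-like cluster 0, led by Col1a1 and Col1a2 with Thbs4 and Fmod, held 1043 cells without and 23 with suspension, and inflammatory fibroblast-like cluster 1, led by Cxcl5, Mmp3 and Mmp13, held 661 and 28. Cells with suspension dominated tenocyte-like cluster 18 (41 and 553 cells), the fibroblast-like clusters 2 (Myoc and Sfrp4; 53 and 1400), 7 (Fbn1 and Mfap5; 71 and 1058), 8 (Apod and Cxcl14; 50 and 1040) and 20 (Pi16 and Clec3b; 29 and 867), and lining-like cluster 9 (Prg4 and Htra4; 81 and 1354). The name of cluster 0 is less certain than that of cluster 18: its 50 leading genes held 4 tenocyte and 6 fibroblast markers, against 7 and 3. A cluster drawn mostly from 1 library may reflect that library and not a cell type. Median depth within the lineage ran against the libraries as a whole, at 25269 UMIs without and 12758 with suspension. All 10 tenocyte markers were detected in the lineage of both libraries, at a summed 4953 CPM without and 2747 CPM with suspension. Marker transcripts of neutrophils were present in lineage cells of both libraries, with all 12 markers detected at a summed 1611 CPM without and 1173 CPM with suspension. Macrophage markers (11 of 11 detected) summed to 157 and 101 CPM, monocyte markers (8 of 8) to 388 and 537 CPM, and cartilage markers to 230 (10 of 10) and 27.1 CPM (9 of 10). The monocyte list includes F13a1, which was among the 10 leading genes of lining-like cluster 9, so its sum also holds transcripts of that cluster. Larger differences upward were seen for erythroid markers, at 1.8 (2 of 4) and 207 CPM (4 of 4), and for bone-forming markers, at 30.4 and 164 CPM (7 of 8 in both). Mast cell or basophil markers (7 of 7) were at 2.84 and 30.6 CPM and lymphatic endothelial markers (5 of 5) at 1.96 and 15.4 CPM. The lining markers (6 of 6), which name cluster 9 of the lineage itself, were at 6271 and 32444 CPM. The part of these cells in the results was not tested.

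Of the 7 genes 5 were almost confined to the fibroblast lineage in both libraries. Of all Has1 UMIs in kept cells, 97.8% (interval 97.6 to 98.0) without and 98.0% (97.9 to 98.1) with suspension lay in it. The shares were 95.5% and 94.7% for Has2, 95.9% and 97.2% for Tnfaip6, 97.5% and 97.8% for Ptx3, and 97.2% and 97.5% for Cemip. Cd44 and Hyal2 were spread wider. The lineage held 33.6% of Cd44 UMIs without and 55.8% with suspension, beside 27.8% and 4.25% in neutrophil-like and 27.9% and 10.8% in macrophage-like cells. For Hyal2 the lineage held 57.1% and 47.5%, and blood endothelial-like cells, 0.86% and 1.99% of kept cells, held 16.1% and 14.6%.

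**Figure D1:**
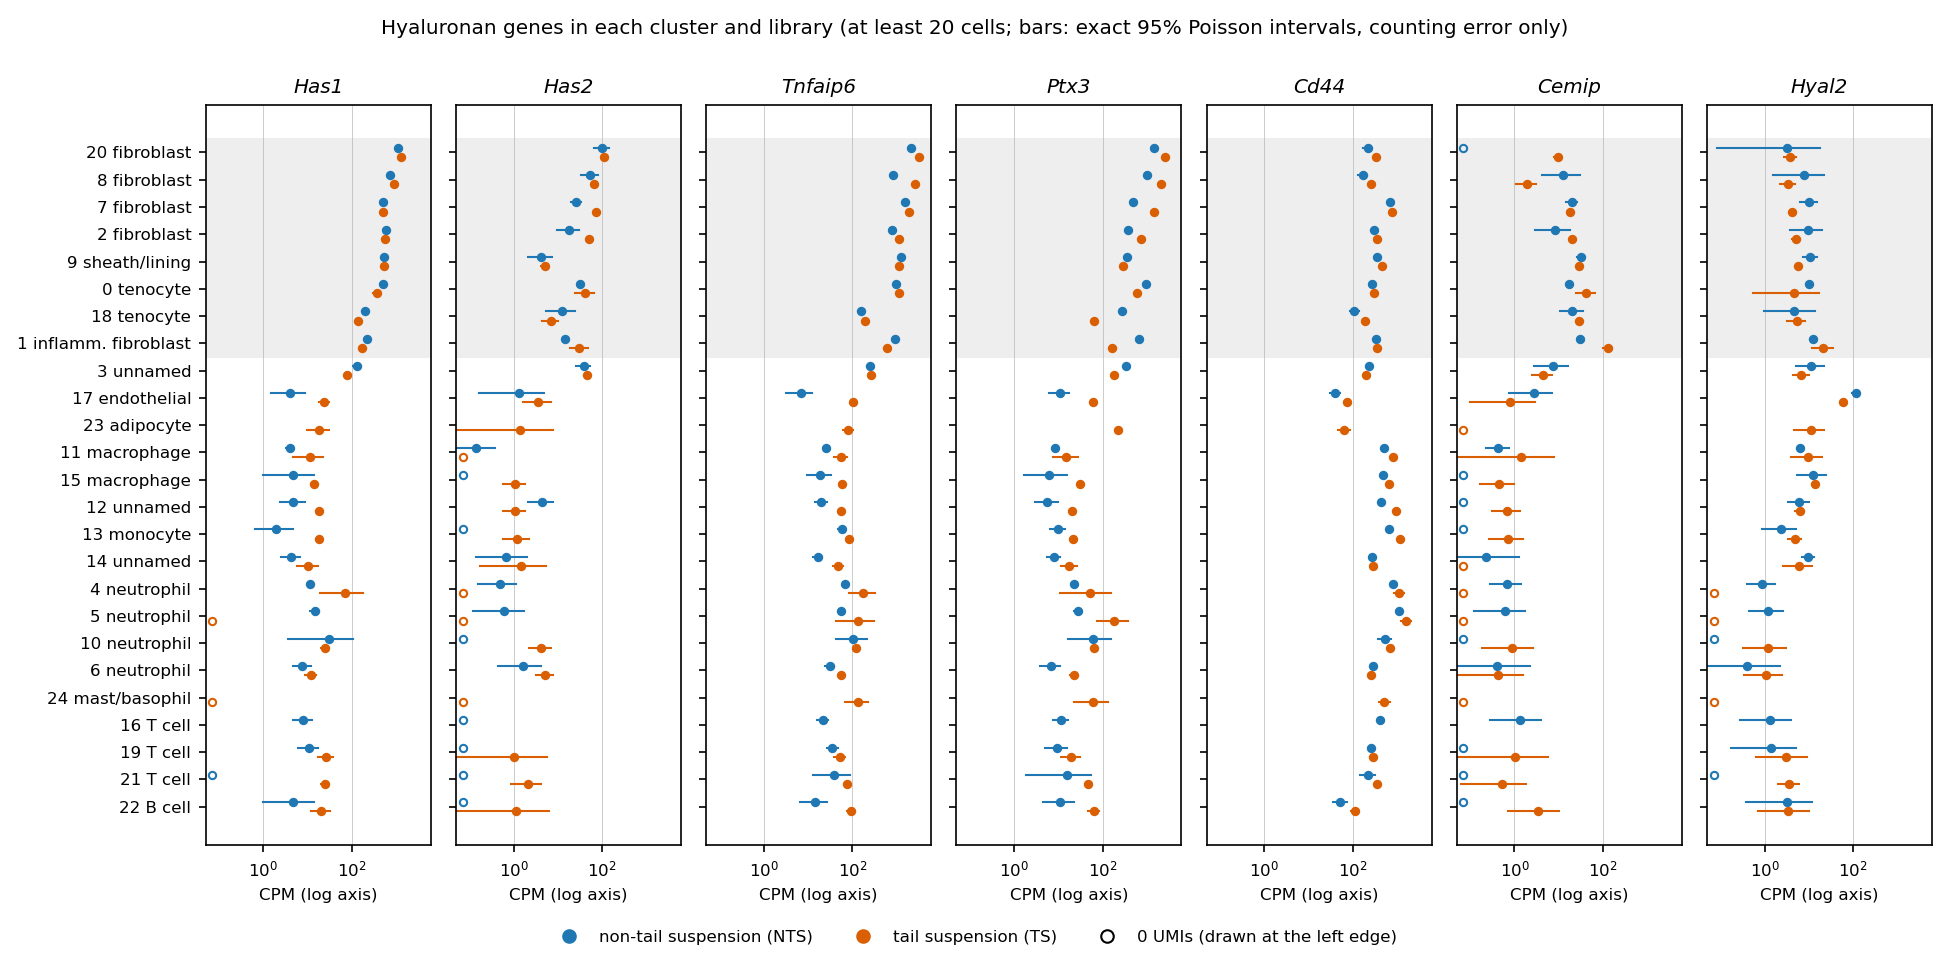
Level of each gene in CPM (log axis) in each of the 25 clusters with at least 20 cells of a library; blue points are the non-tail suspension and orange points the tail suspension library, bars are exact 95% Poisson intervals, and the shaded rows are the fibroblast-lineage clusters. Has1, Has2, Tnfaip6 and Ptx3 were highest in cluster 20 in both libraries, Cd44 was high in immune clusters as well, and Hyal2 stood highest in endothelial-like cluster 17, at 112.5 and 59.2 CPM.

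The levels of Has1, Tnfaip6 and Ptx3 followed each other across classes, and the sequence before their starts is shown, from RefSeq promoters on GRCm38. Across 27 sums, each of 1 class in 1 library with at least 50 cells, Pearson's r of log2(CPM + 10) was 0.95 between Has1 and Tnfaip6, 0.94 between Tnfaip6 and Ptx3 and 0.91 between Has1 and Ptx3. These points share libraries and their free RNA, and r is given as a description. The sums include classes with hardly any of these transcripts. So r also holds the contrast between the lineage and other classes, and shared regulation was not tested. Other genes reached a similar r, such as Loxl1 with Ptx3 (0.98), Pdgfra with Has1 (0.97) and Cemip with Has1 (0.90). Within the lineage without suspension, Ptx3 UMIs per Has1 UMI were 0.68 in lining-like and 2.95 in inflammatory fibroblast-like cells. The Has1 stretch is chr17:17855206-17855438 (minus strand), that of Tnfaip6 is chr2:52037863-52038008 (plus strand) and that of Ptx3 is chr3:66219637-66219886 (plus strand). Each begins 250 bases before the RefSeq start and stops short of any annotated exon, and capitals mark matches to a motif.
Has1: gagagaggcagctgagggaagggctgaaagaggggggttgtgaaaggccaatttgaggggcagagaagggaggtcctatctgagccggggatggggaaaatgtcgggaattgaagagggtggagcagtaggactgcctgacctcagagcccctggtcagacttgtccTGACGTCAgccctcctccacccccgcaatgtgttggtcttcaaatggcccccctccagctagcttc
Tnfaip6: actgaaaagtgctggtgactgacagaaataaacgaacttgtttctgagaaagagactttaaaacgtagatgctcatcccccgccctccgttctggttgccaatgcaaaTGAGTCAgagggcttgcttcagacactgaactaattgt
Ptx3: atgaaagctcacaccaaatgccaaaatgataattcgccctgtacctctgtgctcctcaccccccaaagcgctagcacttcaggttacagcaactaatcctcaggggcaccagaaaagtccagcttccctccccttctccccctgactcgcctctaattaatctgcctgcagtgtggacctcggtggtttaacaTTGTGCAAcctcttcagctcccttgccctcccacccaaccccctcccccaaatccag

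A search for 5 motifs was made on both strands in the 250 bases before the start: the cAMP response element TGACGTCA, the AP-1 motif TGANTCA, the C/EBP motif TTNNGCAA, the TATA box TATAAA and the NF-kB motif. No stretch can match the first and the second of these at the same position. Has1 held the cAMP response element, beginning 83 bases before its start, which 1.55% of 32851 promoters hold in the same window. Tnfaip6 held an AP-1 match (142 bases before the start; 6.75% of promoters) and Ptx3 a C/EBP match (57 bases; 9.56%). None of these 3 matches was shared among the 3 windows. Of the other members, Cemip held a TATA box 29 bases before its start (12.4% of promoters) and Hyal2 an NF-kB match (3.9%), while Cd44 held none of the 5. A match describes letters only, and the counts do not bear on binding.

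Has1 (ENSMUSG00000003665, chromosome 17, 17843323 to 17855205 on GRCm38, minus strand) encodes an enzyme that builds hyaluronan from UDP-sugars. In the pooled lineage it was at 394 CPM (389 to 399) without and 623 CPM (618 to 628) with suspension, a log2 ratio (suspension over no suspension, as in every ratio below) of 0.66 (0.64 to 0.68). As a mean of the ratios within the 4 clusters that held at least 50 cells of both libraries the ratio was 0.09, and without cluster 1 the pooled ratio was 0.31 and without cluster 0 it was 1.07. Within those clusters Has1 was at 573 and 570 CPM in cluster 2, 509 and 512 CPM in cluster 7, and 520 and 533 CPM in cluster 9. In CPM the interval lay above 0 in cluster 8 alone of the 4, at 719 and 891 CPM (log2 ratio 0.31, 0.14 to 0.49). CPM put the genes well counted in both libraries at a median of -0.10, -0.14, -0.16 and -0.10 in clusters 2, 7, 8 and 9, and centring on this median (median-of-ratios scaling) gave Has1 ratios of 0.09, 0.15, 0.47 and 0.14. On that scale the intervals of clusters 7 (0.06 to 0.23) and 9 (0.06 to 0.22) lay above 0 as well. The highest level was in Pi16-expressing cluster 20, at 1072 CPM (960 to 1194) without and 1263 CPM (1242 to 1284) with suspension. The lowest lineage levels were in tenocyte-like cluster 18, at 197 and 138 CPM, and inflammatory fibroblast-like cluster 1, at 221 and 170 CPM.

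Has2 (ENSMUSG00000022367, chromosome 15, 56665627 to 56694539, minus strand) encodes the synthase needed for heart development, and overlaps the antisense gene Has2os over 4596 bases. It was at 23 CPM (21.7 to 24.3) in the lineage without and 48.2 CPM (46.9 to 49.6) with suspension, and its log2 ratio of 1.07 (0.98 to 1.16) was the only one of the 7 at least 2-fold higher, a mark that 8.03% of the 14851 genes compared in the lineage passed upward. Cluster 7 went from 25.6 CPM to 73.0 CPM (log2 ratio 1.51, 1.14 to 1.91) and cluster 2 from 17.5 CPM to 49.5 CPM (1.50, 0.72 to 2.41). Both ratios rest on few UMIs without suspension, 59 in cluster 7 and 13 in cluster 2. In cluster 8 the level was 53.0 and 64.5 CPM, a ratio whose interval (-0.34 to 0.99) included 0. Cells thinned to 2000 UMIs each gave a lineage ratio of 0.71. Outside the lineage Has2 was highest in cluster 3, which was left unnamed, with 30 UMIs without and 167 with suspension at median depths of 1700.5 and 1941 UMIs.

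The balance of the 2 synthases differed between clusters. Has2 made up 5.51% (5.22 to 5.81) of the Has1 and Has2 UMIs of the lineage without and 7.18% (6.99 to 7.38) with suspension. In lining-like cluster 9 it made up 0.798% (0.413 to 1.39) and 0.926% (0.785 to 1.09), with Has2 at 4.18 and 4.98 CPM and Has1 at 520 and 533 CPM. In cluster 7 the Has2 share was 4.8% (3.67 to 6.14) without and 12.5% (11.97 to 12.99) with suspension, and in cluster 2 it was 2.96% (1.59 to 5.01) and 7.99% (7.47 to 8.53). In clusters 8 and 20 the intervals of the 2 libraries overlapped. UMIs of different genes are captured with different efficiency, so this share compares clusters and is not the ratio of the transcripts. Has3, the remaining synthase gene, had 9 and 32 UMIs in the whole lineage and was too rare to compare.

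**Figure D2:**
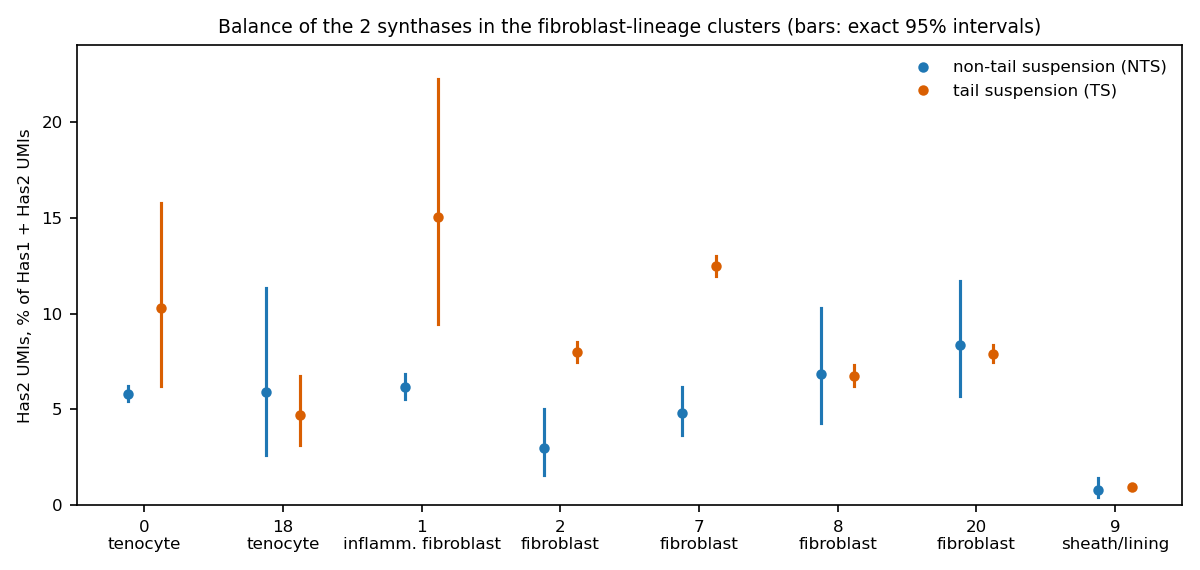
Has2 UMIs as a percent of all Has1 and Has2 UMIs in the 8 fibroblast-lineage clusters, with the non-tail suspension library in blue, the tail suspension library in orange, and exact 95% binomial intervals as bars. Lining-like cluster 9 stood lowest in both libraries, at 0.798% and 0.926%, and cluster 7 with suspension was at 12.5%.

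Tnfaip6 (ENSMUSG00000053475, chromosome 2, 52038009 to 52056686, plus strand) encodes the secreted protein TSG-6. It was at 983 CPM (975 to 991) in the lineage without and 1648 CPM (1640 to 1656) with suspension, a log2 ratio of 0.75 (0.73 to 0.76). Cluster 20 was highest, at 2154 and 3106 CPM. Cluster 8 showed the largest difference within a cluster, 822 CPM (735 to 916) against 2563 CPM (2529 to 2598), a log2 ratio of 1.64 (1.48 to 1.80) over 50 and 1040 cells. Clusters 2 and 7 were higher by less, with log2 ratios of 0.55 and 0.31, and lining-like cluster 9 was at -0.14 (-0.19 to -0.09). With median-of-ratios scaling cluster 9 was at -0.04, with an interval (-0.09 to 0.01) that included 0.

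Ptx3 (ENSMUSG00000027832, chromosome 3, 66219910 to 66225805, plus strand) encodes a long pentraxin of innate immunity. The whole gene lies within Veph1 on the opposite strand, and whether the counting used strand is not given in the sources used here. Its lineage level was 765 CPM (758 to 772) without and 1072 CPM (1065 to 1078) with suspension, a log2 ratio of 0.49 (0.47 to 0.50). The clusters differed in direction. In cluster 7 it was at 483 CPM without and 1454 CPM with suspension (log2 ratio 1.59, 1.50 to 1.68), and in cluster 8 at 1014 CPM and 2059 CPM (1.02, 0.88 to 1.17). In lining-like cluster 9 it was lower, at 355 and 286 CPM (-0.31, -0.40 to -0.22). Cluster 20 again held the highest level, 1423 CPM (1293 to 1563) and 2505 CPM (2475 to 2535).

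With suspension, in fibroblast-like clusters 2, 7, 8 and 20, cells with a Has1 UMI carried Tnfaip6 and Ptx3 UMIs more often than cells of the same cluster and depth without one. With every cell thinned to 2000 UMIs, which left out 28 of 2029 and 291 of 6323 lineage cells, Tnfaip6 was detected in 91.2% (88.4 to 93.5) of cluster 8 cells with a Has1 UMI and 45.9% (41.2 to 50.7) of those without one, with suspension. For Ptx3 these shares were 77.1% (73.2 to 80.6) and 28.4% (24.2 to 32.9). For Tnfaip6 the gap was smaller than in cluster 8 both in lining-like cluster 9 (72.3% and 54.1%) and in fibroblast-like cluster 7 (89.7% and 70.8%). For Ptx3 the intervals overlapped in cluster 9 (25.8% and 21.9%). Cd44 was found in 40.4% of cluster 8 cells with and 17.7% of those without a Has1 UMI, and in 48.6% and 28.5% in cluster 2. In tenocyte-like cluster 18, with 69 Has1-positive cells, Cd44 was at 20.3% and 21%. Without suspension the same gap was seen in tenocyte-like cluster 0, where Tnfaip6 was found in 72.1% of 480 cells with and 46.2% of 556 cells without a Has1 UMI, and Ptx3 in 58.5% and 37.9%. In inflammatory fibroblast-like cluster 1 the gap was smaller for Tnfaip6 (71.3% of 188 and 56.2% of 470 cells). For Ptx3 the intervals overlapped there (51.6%, 44.2 to 58.9, and 46.4%, 41.8 to 51.0). In clusters 7 and 9, with few cells in that library, the intervals overlapped: in cluster 7 Tnfaip6 was at 91.2% of 34 and 80.0% of 35 cells and Ptx3 at 29.4% and 22.9%. Cells of 1 library are not replicates, and these shares describe those cells.

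**Figure D3:**
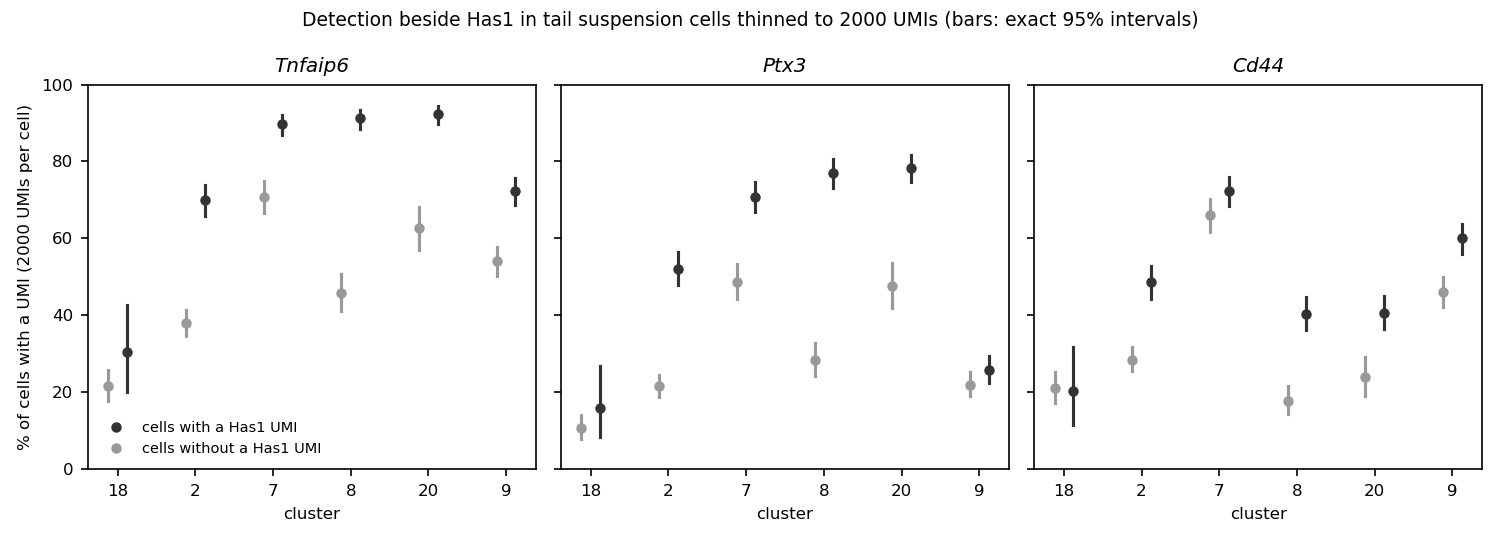
Percent of tail suspension cells with a UMI of Tnfaip6, Ptx3 or Cd44 among cells with (dark) and without (light) a Has1 UMI, by fibroblast-lineage cluster, after thinning to 2000 UMIs per cell; bars are exact 95% binomial intervals. In clusters 2, 7, 8 and 20 the dark points of Tnfaip6 and Ptx3 lie above the light ones with no overlap of the bars.

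Cd44 (ENSMUSG00000005087, chromosome 2, 102811141 to 102901665, minus strand) encodes the receptor through which cells hold and take up hyaluronan. In the lineage it was at 313 CPM (309 to 318) without and 485 CPM (480 to 489) with suspension, a log2 ratio of 0.63 (0.60 to 0.65). Fibroblast-like cluster 7 was highest of the lineage in both libraries, at 681 and 777 CPM, and cluster 8 lowest of the 4 compared, at 166 and 254 CPM. Within clusters 2, 7, 8 and 9 the ratios ran from 0.19 to 0.61, with every interval above 0.

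Among immune cells Cd44 was higher in some populations than in any fibroblast-lineage cluster. In neutrophil-like clusters 4 and 5, which were almost all from the library without suspension, it was at 808 CPM (791 to 826) and 1099 CPM (1070 to 1128). In neutrophil-like cluster 10, almost all from the library with suspension, it was at 682 CPM (655 to 711). In neutrophil-like cluster 6, led by the granule genes Camp, Ngp and Ltf and present in both libraries, it was at 290 CPM (269 to 312) and 257 CPM (242 to 271). The class as a whole was at 816 and 445 CPM, with clusters 4 and 5 holding most of it in 1 library and clusters 10 and 6 in the other. Monocyte-like cells were at 664 CPM (633 to 697) without and 1160 CPM (1137 to 1184) with suspension, a log2 ratio of 0.80 (0.73 to 0.88). The unnamed MHC class II-expressing cluster 12 was at 443 and 931 CPM. Macrophage-like cells were at 512 and 663 CPM, a log2 ratio of 0.37 (0.34 to 0.41), which was 0.12 with median-of-ratios scaling. Cluster 11 held most of that class without suspension and cluster 15 with it. T cell-like cells, at 348 and 339 CPM, gave a log2 ratio of -0.04 (-0.14 to 0.07), which was 0.10 with median-of-ratios scaling. Blood endothelial-like cells (39.8 and 72.8 CPM) and B cell-like cells (52.4 and 110 CPM) were low.

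Cemip (ENSMUSG00000052353, chromosome 7, 83932857 to 84086502, minus strand) encodes a protein that fibroblasts need to break down extracellular hyaluronan. Its lineage levels were 23 CPM (21.8 to 24.3) without and 20.5 CPM (19.6 to 21.4) with suspension, a log2 ratio of -0.17 (-0.27 to -0.06), which became 0.13 without cluster 1. That cluster held 50.6% (47.9 to 53.3) of all Cemip UMIs in kept cells without suspension, at 30.5 CPM. With suspension its 28 cells were at 127 CPM (101 to 157), and the UMIs were mainly in fibroblast-like (45.8%) and lining-like (41.2%) cells. With suspension clusters 8 and 20, which had the highest Has1 and Ptx3, were at 1.92 CPM (1.10 to 3.12) and 9.39 CPM (7.64 to 11.4). Clusters 7 and 2 were at 17.98 and 20.3 CPM, lining-like cluster 9 at 28.2 CPM and tenocyte-like cluster 18 at 29.2 CPM. Over the 27 sums, which include classes with hardly any of these transcripts, Cemip still followed Has1 (r 0.90), Tnfaip6 (0.85) and Ptx3 (0.78). Cluster 8 gave a log2 ratio of -2.71 (-4.23 to -0.91) on 5 UMIs without and 16 with suspension.

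Hyal2 (ENSMUSG00000010047, chromosome 9, 107567945 to 107572779, plus strand) encodes a membrane-anchored hyaluronidase, and overlaps the antisense gene Gm9917 over 471 bases. It was the only one of the 7 at least 2-fold lower in the lineage, at 10.6 CPM (9.79 to 11.5) without and 4.86 CPM (4.43 to 5.31) with suspension, a log2 ratio of -1.13 (-1.31 to -0.95), where 5.58% of genes were lower by that much. The ratio was below 0 in each of the 4 clusters compared, from -0.86 in cluster 2 to -1.26 in cluster 7 (-1.91 to -0.55), although the intervals of clusters 2 and 8 included 0. In thinned cells the lineage ratio was -0.61. The highest level was in blood endothelial-like cells, at 112.5 CPM (96.1 to 131) without and 59.2 CPM (49.99 to 69.5) with suspension. Macrophage-like cells went the other way from the lineage, at 6.43 CPM (5.53 to 7.43) and 13.8 CPM (11.9 to 15.9), a log2 ratio of 1.10 (0.80 to 1.40) beside a median of 0.26 over all genes compared in them, with cluster 11 holding most of the class without suspension and cluster 15 with it. In cluster 15 the level was 12.5 CPM without suspension, from 60 cells, and 14 CPM with it.

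In the pooled lineage 5 of the 7 genes were higher and 2 lower with suspension, with a median log2 ratio of 0.63 beside 0.04 over all 14851 genes compared. The 2-fold mark was passed by 2 of the 7, Has2 upward and Hyal2 downward, and by 13.6% of all genes in either direction. Among fibroblast-like cells alone (203 and 4365 cells) 2 were at least 2-fold higher, Has2 and Ptx3, and 1 lower, Hyal2, against 12% of genes in either direction. With median-of-ratios scaling Hyal2 was at -0.98 there, short of the mark. Lining-like cluster 9 had none of the 7 past the mark (13.7% of all genes). In clusters 2, 7 and 8, where 15.9%, 13% and 17.3% of genes passed it, 2, 3 and 4 of the 7 did, and Ptx3 in cluster 2 went from 0.95 to 1.06 with that scaling. The shares over all genes cover only genes with at least 50 UMIs. Of the 4 in cluster 8, Cemip (5 and 16 UMIs) and Hyal2 (3 and 28 UMIs) fell short of that, so the count and the share are not alike there. The interval of Hyal2 in cluster 8 (-2.86 to 1.19) included 0.

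The tenocyte-like class went against the pooled lineage. Of the 7 genes 6 were lower with suspension and 4 of these at least 2-fold, where 11.9% of all genes were lower by that much. Has1 was at 492 and 160 CPM (log2 ratio -1.62), Has2 at 30.4 and 10.2 CPM (-1.58), Tnfaip6 at 944 and 286 CPM (-1.72), and Ptx3 at 922 and 115 CPM (-3.0). Cemip was higher, at 17.2 and 30.4 CPM (0.82, 0.54 to 1.10). Different clusters held this class in the 2 libraries, cluster 0 without suspension (1043 of 1084 cells) and cluster 18 with it (553 of 576), and their median depths were 23732 and 5740 UMIs. The few cells of cluster 0 that came from the suspension library (23) were at 358 CPM (304 to 418) for Has1 and 1116 CPM (1020 to 1220) for Tnfaip6, against 499 and 963 CPM in the same cluster without suspension. The 41 cells of cluster 18 without suspension were at 197 CPM for Has1 and 160 CPM for Tnfaip6. For these 2 genes the gap between the clusters was larger than that between the libraries within either one. Ptx3 differed in part, at 938 and 590.0 CPM in cluster 0 and at 279 and 62.4 CPM in cluster 18. The ratio between libraries within cluster 18 was larger than that between the clusters without suspension. With suspension the ratio between the clusters was larger than that between the libraries within either one.

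**Figure D4:**
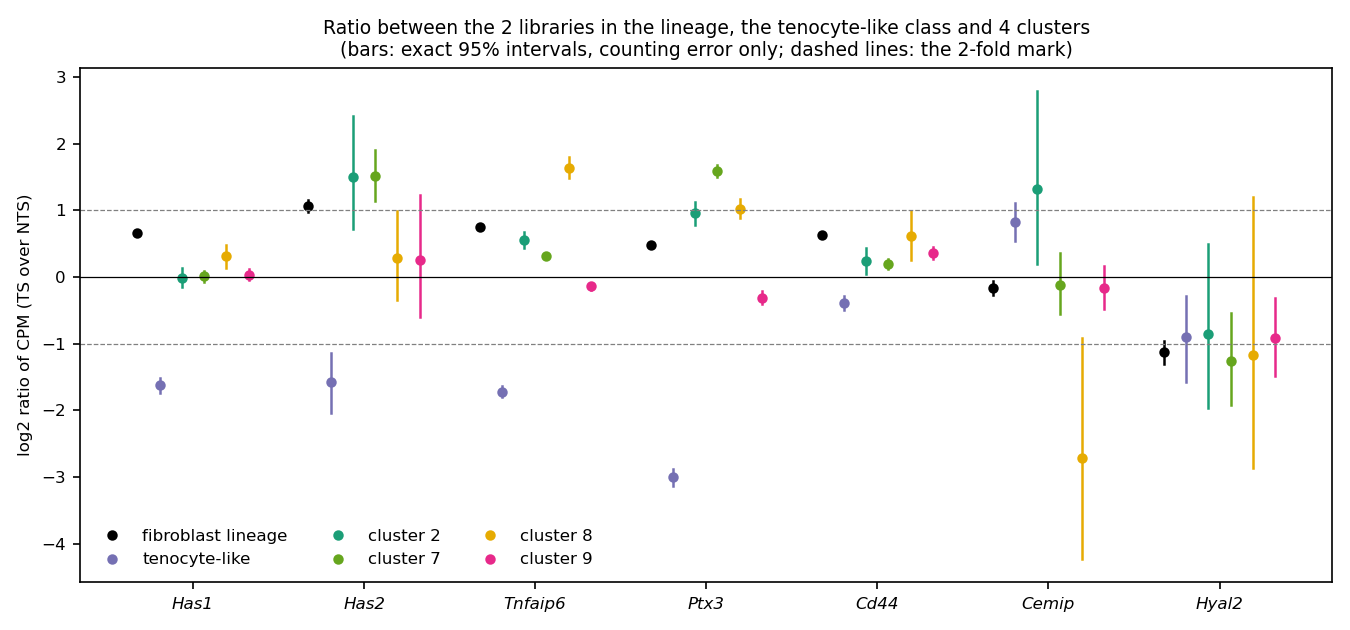
Log2 ratio of CPM, tail suspension over non-tail suspension, of each gene in the whole fibroblast lineage (black), the tenocyte-like class (purple) and clusters 2, 7, 8 and 9, with exact 95% intervals for counting error as bars and the 2-fold mark as dashed lines. The tenocyte-like points of Has1, Has2, Tnfaip6 and Ptx3 lie below -1, those of Hyal2 are below 0 in all 6 groups.

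Outside the lineage the fibroblast genes stood well above the B cell-like level in unnamed cluster 3, at 130 and 77.8 CPM for Has1, 246 and 259 CPM for Tnfaip6 and 345 and 176 CPM for Ptx3, on the low depths given above. That cluster was led by Apod, Gpc3 and Timp3, with Ccl11, Col1a1 and Col1a2 among its 10 leading genes. Its 50 leading genes held 2 fibroblast markers, short of the 3 needed for a name. Adipocyte-like cluster 23 (16 and 57 cells) held 50 Ptx3 and 0 Has1 UMIs without and 160 and 13 with suspension. With suspension that was 12.3 Ptx3 UMIs per Has1 UMI (7.0 to 23.6), beside 1.72 in the lineage. In the immune classes the fibroblast genes were lower than in cluster 3. B cell-like cells, which are not known to make these transcripts, had Has1 at 4.77 CPM (0.98 to 13.9) without and 20.4 CPM (12.1 to 32.3) with suspension, Tnfaip6 at 14.3 and 94.1 CPM, and Ptx3 at 11.1 and 62.4 CPM. At least 1 Tnfaip6 UMI was found in 8.79% and 21.6% of them, at median depths of 3353 and 2372.5 UMIs, beside 89.8% and 82.7% of lineage cells at 25269 and 12758 UMIs. Macrophage-like cells had Has1 at 3.96 and 13.4 CPM and Tnfaip6 at 24.7 and 58.0 CPM. Tnfaip6 was above the B cell-like level without suspension in neutrophil-like (59.8 CPM, 56.3 to 63.5) and monocyte-like cells (57.0 CPM, 48.1 to 67.0), but not with it (83.9 and 84.5 CPM). For Has1, Tnfaip6 and Ptx3 a higher level with suspension in immune classes moved with this background, and its part in them was not tested. The number of Tnfaip6 UMIs per Has1 UMI differed between classes. Without suspension it was 1.92 in tenocyte-like and 4.21 in inflammatory fibroblast-like cells, 3.12 (2.09 to 4.77) in T cell-like, 5.07 (4.36 to 5.91) in neutrophil-like and 6.25 (5.11 to 7.70) in macrophage-like cells. Monocyte-like cells held 146 Tnfaip6 and 5 Has1 UMIs, a ratio of 29.2 (12.2 to 91.3). B cell-like cells were at 3.0 (0.75 to 17.2) without and 4.61 (2.75 to 8.16) with suspension, and monocyte-like cells with suspension at 4.64 (3.89 to 5.56).

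Enzymes that supply the sugar precursors were mostly higher with suspension in the pooled lineage, and less so within clusters. Of 8 genes 7 were higher and 2 past the 2-fold mark, with a median log2 ratio of 0.65; the shares past it and the median over all genes are those given above for the lineage. Hk2, a hexokinase, was at 150 and 455 CPM (log2 ratio 1.60) and Gfpt2, which makes glucosamine phosphate, at 162 and 471 CPM (1.54). Ugdh, which makes the UDP-glucuronic acid that synthases consume, was at 435 and 708 CPM (0.70). Within clusters Hk2 was higher in each of clusters 2, 7, 8 and 9, from 0.95 to 2.18, while Gfpt2 ranged from 0.02 in cluster 7 to 0.86 in cluster 2. Ugdh was at 0.71 (0.49 to 0.94) in cluster 8 and 0.28 in cluster 7, and its intervals in clusters 2 (0.11) and 9 (0.04) included 0. The medians of the list were 0.42, -0.02, 0.51 and 0.30 in clusters 2, 7, 8 and 9, with 4 of 8 genes higher in cluster 7. Ugdh was also among the 5 genes most like Has1 and the gene most like Tnfaip6 across the 27 sums, with r of 0.97 for both.

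Other degradation genes were mostly lower, 4 of 5 measured, with a median of -0.57. Hexa, a subunit of lysosomal hexosaminidase, was past the mark, at 171 and 63.3 CPM (log2 ratio -1.43), and its ratio within clusters ran from -1.21 to -1.53. Cemip2 was higher, at 36.9 and 49.9 CPM (0.44). Other receptors split, with 2 higher and 4 lower, and only Lyve1 past the mark, at 0.66 and 5.93 CPM (3.16). In blood endothelial-like cluster 17, whose leading genes include the lymphatic genes Ccl21a and Mmrn1, Lyve1 was at 82.2 and 1085 CPM, and the part of such cells in the lineage value was not tested. Matrix proteins that bind hyaluronan had 4 of 6 higher with a median of 0.07. The proteoglycan gene Vcan was at 436 and 469 CPM (0.10) in the pooled lineage. In CPM it was below 0 within each of clusters 2, 7, 8 and 9 (-0.20, -0.09, -0.27 and -0.22), with an interval that included 0 in cluster 8. Well counted genes had medians of -0.10, -0.14, -0.16 and -0.10 in these clusters, and each Vcan interval included the median of its own cluster. The cartilage proteoglycan gene Acan was at 55.5 and 10.7 CPM (-2.38), beside the difference in cartilage markers given above. Of the genes for heavy chains and their partner bikunin, 2 of 6 were measured, Itih5 at 0.87 and Itih2 at -0.29. The pooled Itih5 value turned in clusters 2 (-0.70) and 8 (-0.74). It was at -0.02 (-0.19 to 0.15) in cluster 7, against 1.55 (1.31 to 1.80) in lining-like cluster 9. The liver-made Itih1 and Ambp had 0 and 14 UMIs in the lineage without suspension.

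Partners of CD44 had 6 of 9 higher with a median of 0.32, and 2 lower past the mark. These were the secreted ligands Spp1, at 1551 and 420 CPM (-1.89), and Srgn, at 603 and 249 CPM (-1.28), both also made by myeloid cells. Within clusters the list turned in cluster 7 (3 higher and 6 lower, median -0.39) and cluster 8 (4 and 5, -0.25) but not in cluster 2 (median 0.47) or cluster 9 (0.19). Spp1 was past the mark in clusters 7 (-1.62) and 9 (-1.74), and Srgn in none of the 4. Inflammatory inducers split evenly, 5 higher and 5 lower with a median of -0.03. Il6 was at 174 and 603 CPM (1.79), and its ratio was 2.32 in cluster 8 and 2.06 in cluster 7 but 0.22 in cluster 2. Il1b was at 129 and 27.0 CPM (-2.25), beside the neutrophil markers named above, and the growth factor gene Pdgfa at 132 and 58.2 CPM (-1.18). Immediate-early genes, which tissue digestion can switch on, were lower for 13 of 20 with a median of -0.27, and 4 were past the mark: Jund (-1.30), Dusp1 (-1.24), Ier2 (-1.15) and Jun (-1.12). Within clusters 7, 8 and 9 they went the other way, with 13, 14 and 13 of 20 higher and medians of 0.19, 0.39 and 0.15, and cluster 2 had 12 of 20 lower with a median of -0.15.

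**Figure D5:**
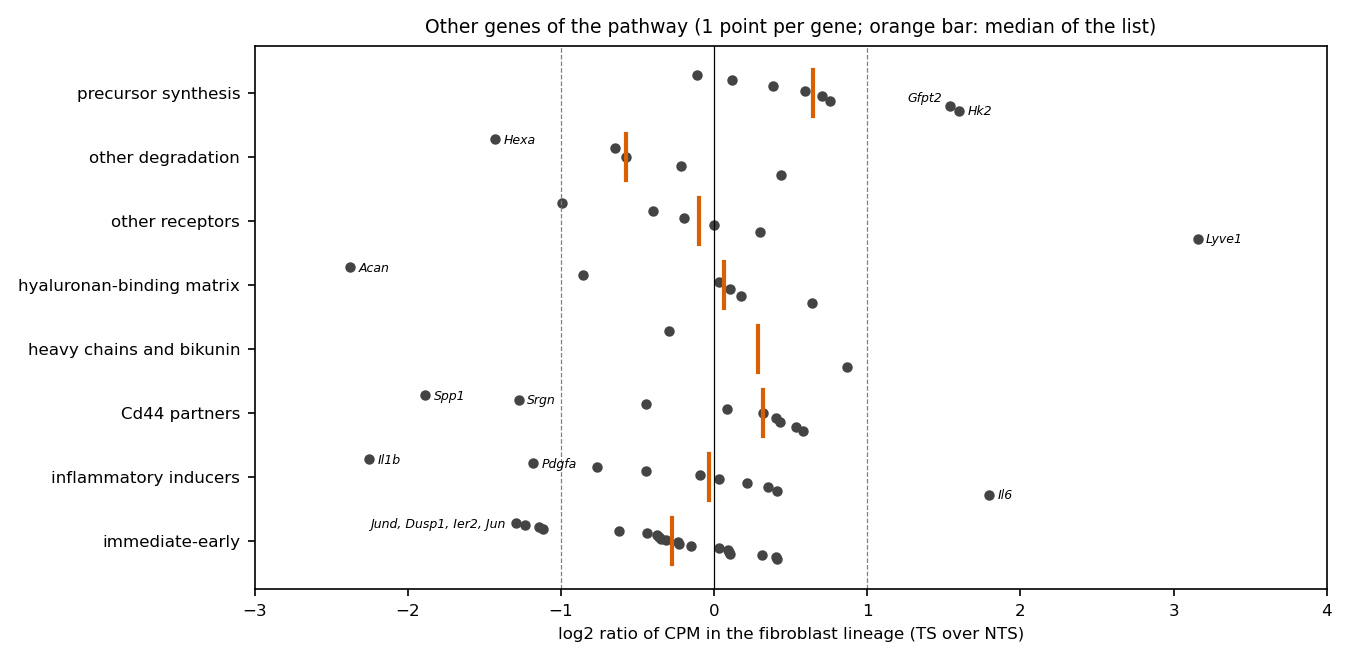
Log2 ratio of CPM in the fibroblast lineage, tail suspension over non-tail suspension, for the measured genes of 8 lists; each point is 1 gene, the orange bar is the median of its list, dashed lines are the 2-fold mark and genes past it are named. Precursor synthesis genes have a median of 0.65 and other degradation genes a median of -0.57.

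The genes most like each member in level were also read from the 27 sums, over 12737 genes. For Has1 they were Medag, Mrc2, Ugdh, Pdgfra and Sdc2 (r from 0.98 to 0.96), and for Has2 Sult5a1, Slit3, Vgll3, Nipal2 and Tpbg (0.97 to 0.95). Tnfaip6 was followed by Ugdh, Dpt, Loxl1, Gfpt2 and Egfr (0.97 to 0.95) and Ptx3 by Loxl1, Dpt, Pcsk5, Mmp2 and Bgn (0.98 to 0.96). Cemip was nearest to the matrix protease gene Mmp3 (0.96), then Plod2, Scara3, Pitx1 and Steap2. Cd44, which was high in myeloid cells as well, had no neighbour above 0.86 (Emilin2), and Hyal2 was nearest to Slc9a3r2 and the endothelial gene Clec14a (0.92 both).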

How the data were processed

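Single cells were profiled on a 10x Genomics platform, 1 library per condition. Per the submitters' processing notes Cell Ranger 5.0.1 and GRCm38 were used; the authors deposited raw UMI counts, and the file headers name format software 3.1.0. Total counts were 121868851 (11430 barcodes) without and 166606774 (15545) with suspension. Equalising of depth between libraries is not given in the sources used here.

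Barcodes under 300 genes (91 and 268) or over 20% mitochondrial UMIs (392 and 794) were left out. Doublets were called with Scrublet in scanpy 1.11.5. Its automatic threshold called 0 cells without suspension, so, after seeing this, the threshold found with suspension was used for both (128 and 492 cells, 1.17% and 3.4%, below the expected 9.14% and 12.4%); doublets remain. Clustering used log counts, 2000 variable genes chosen per library without the 7 genes and their pathway lists (immediate-early genes stayed in), 30 principal components, 15 neighbours and Leiden resolution 1.0, giving 25 clusters. A cluster took the class with most fixed markers among its 10, then 50, leading genes by fold, with at least 3. This scoring was set after seeing the data and changed once: a second class with 3 markers among the leading 10 leaves a cluster unnamed, which removed the name of cluster 14.

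UMIs were summed per class and library as CPM with exact Poisson intervals. Ratios carry exact conditional binomial intervals, and shares Clopper-Pearson ones (SciPy 1.17.1). The ratio intervals were tried only on counts simulated with independent counting error. That trial cannot show how they do on UMIs grouped in cells. A gene was compared with at least 50 UMIs, a member counted as measured with at least 20, a list gene with at least 100; the mark is a log2 ratio of 1. Classes needed 100 cells, and clusters 50, in both libraries. PCR duplicates are removed by UMIs, yet intervals cover counting error only. Genes named are the 7, list genes past the mark (at most 4 a list) and the 5 most correlated genes per member; Ugdh, Vcan, Cemip2, Has3, the heavy-chain genes and cluster leaders were named after their values were seen. Positions are from GENCODE vM21 and promoters from RefSeq (GRCm38), where 6 of 7 matched. Members and lists were chosen with earlier results of these data known.

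Alternatives were median-of-ratios scaling, thinning to 2000 UMIs, means over cells or within clusters, at least 1000 genes, at most 10% mitochondrial UMIs, doublets kept, resolutions 0.5 and 2.0, and clustering with the members. Leaving out cluster 0 or 1 and cells of at least 5000 UMIs were added after seeing the data. No batch is named in the labels.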

Additional observations from a re-analysis of the deposited data

Results flagged for a closer look

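Some genes differed past the 2-fold mark in opposite directions in 2 fibroblast-lineage classes or clusters, and none of these differences was tested. Only the lineage was searched, a limit set after the values were seen, so differences in immune classes, where Cd44 was high, are not covered. Has2 had a log2 ratio of 1.13 in fibroblast-like cells (1.50 in cluster 2 and 1.51 in cluster 7) and -1.58 in tenocyte-like cells. Tnfaip6 was at 1.64 in cluster 8 and -1.72 in tenocyte-like cells. Ptx3 was at 1.35 in fibroblast-like cells (1.59 in cluster 7, 1.02 in cluster 8) and -3.0 in tenocyte-like cells. Cemip was at 1.33 in cluster 2, from 6 and 332 UMIs, and -2.71 in cluster 8, from 5 and 16 UMIs. The tenocyte-like class was mostly cluster 0 in 1 library and mostly cluster 18 in the other, and cluster and condition cannot be told apart in its ratios. Within cluster 0, with 23 cells from the suspension library, the levels given above were lower with suspension for Has1 and Ptx3 but higher for Tnfaip6. Has2 was not lower with suspension in cluster 0, on only 18 UMIs with and 819 without it. Has1 had 157 and 13269 UMIs in the same cells.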

How the results depend on the processing

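The lineage log2 ratios of all 7 genes moved by less than their counting interval with median-of-ratios scaling, at least 1000 genes, resolutions 0.5 and 2.0 and clustering with the members. No paired analysis was possible because each condition has 1 library. Thinned to 2000 UMIs, Has2 was at 0.71, Cd44 at 0.47, Tnfaip6 at 0.71, Ptx3 at 0.54, Cemip at -0.31 and Hyal2 at -0.61; Has2 and Hyal2 were then short of the 2-fold mark. As a mean over cells, Has1 was at 0.62, Has2 at 0.96, Cd44 at 0.37 and Cemip at -0.41. As a mean within clusters, Has1 was at 0.087, Has2 at 0.89, Cd44 at 0.35, Tnfaip6 at 0.59, Ptx3 at 0.81 and Cemip at -0.42. With at most 10% mitochondrial UMIs, Has1 was at 0.62, Cd44 at 0.60, Tnfaip6 at 0.71 and Ptx3 at 0.45. With doublets kept, Has1 was at 0.63, Tnfaip6 at 0.72 and Ptx3 at 0.46. Of the alternatives chosen after seeing the data, leaving out cluster 0 gave 1.07 for Has1, 1.61 for Has2, 0.45 for Cd44, 0.72 for Tnfaip6, 0.82 for Ptx3 and -0.48 for Cemip. Leaving out cluster 1 gave 0.31, 0.77, 0.70, 0.70 and 0.36 for the same 5 genes and 0.13 for Cemip, whose sign turned. Cells of at least 5000 UMIs gave 0.66 for Cd44, 0.77 for Tnfaip6 and 0.51 for Ptx3. The cause of these shifts was not tested. Per class, 20 of 70 CPM values moved past their interval with doublets kept and 59 of 70 shares of cells with a UMI did with thinning, which lowers detection by construction. Depth limits Has2, Cemip and Hyal2 within clusters: in cluster 2 without suspension they had 13, 6 and 7 UMIs.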
